A study of Mus musculus with 72 samples.

Results

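The genes described here are 8 genes of cholesterol synthesis and of its control, measured in mouse pancreatic islets, out of 14604 genes with values. They were chosen by symbol: the enzyme genes Hmgcs1, Idi1, Fdps, Sqle and Lss, the regulators Insig1 and Srebf2, and Mylip, whose protein acts on the LDL receptor. All 8 were found, each as 1 row of the table. Male BALB/cJ, DBA/2J and C57BL/6J mice, inbred strains for which the labels name no transgene or mutant allele and give an age of 8 weeks, ate either a high-fat diet (HFD) or, as controls, regular chow (RC). Feeding lasted 5, 13 or 33 days. Each library came from 120 to 150 islets of a single mouse, and the islets of all groups had been cultured overnight, so the spread behind each p-value is that between mice. Strain, diet and day made 18 groups with 69 libraries in all, 35 under HFD and 34 under RC. There were 4 libraries in 15 groups and 3 in DBA/2J HFD day 13, DBA/2J RC day 33 and C57BL/6J RC day 33.

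Cells make cholesterol from acetyl-CoA through mevalonate and isoprenoid diphosphates to squalene, which is oxidised, closed into a ring and trimmed to cholesterol. The genes of this pathway are switched on together by SREBP-2, the product of Srebf2. When sterols are plentiful, the INSIG proteins hold SREBP-2 and its escort SCAP in the endoplasmic reticulum, so the pathway is turned down. Insig1 is itself an SREBP target, which closes a feedback loop. Cells also take up cholesterol as LDL, and Mylip (also called Idol) encodes a ubiquitin ligase that marks the LDL receptor for degradation and is induced by the sterol-sensing receptor LXR. In beta cells, cholesterol content bears on the membranes from which insulin is secreted.

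Positions are on GRCm38, from the GENCODE annotation. Hmgcs1 (ENSMUSG00000093930.2) lies at chr13:119690379-119708260, Idi1 (ENSMUSG00000058258.14) at chr13:8885501-8892451 and Mylip (ENSMUSG00000038175.10) at chr13:45389742-45412022, all on the plus strand. Sqle (ENSMUSG00000022351.14) lies at chr15:59315077-59331192 and Srebf2 (ENSMUSG00000022463.7) at chr15:82147181-82205379, both on the plus strand. Lss (ENSMUSG00000033105.12) lies at chr10:76531588-76557138 and Insig1 (ENSMUSG00000045294.11) at chr5:28071363-28078662, both on the plus strand. Fdps (ENSMUSG00000059743.12) lies at chr3:89093588-89101959 on the minus strand. Some transcripts share long stretches with other genes, counted at 95% identity over at least 125 bases, the read length. Fdps shares such a stretch with 5 other genes, 4 of them processed pseudogenes, over up to 1066 bases. Idi1 shares one with 3 others, 2 of them processed pseudogenes, over up to 684 bases. Reads of Fdps and Idi1 could be split between copies, so their levels are uncertain. Insig1 has 1 such pseudogene over 189 bases. Sqle, Srebf2 and Mylip have no such partner. Hmgcs1 and Lss are each overlapped on the opposite strand by an antisense gene (Gm48342 and 4930483K19Rik), and Idi1 is overlapped there by Gm48574. Fdps is overlapped on its own strand by the protein-coding gene Gm43738, which matches it over 929 bases, and by Gm22935. Srebf2 is overlapped on its own strand by Gm49502 and by Mir33.

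Promoter windows of 300 bases, 250 before to 50 after the start of the gene, were available for 6 of the 8 genes from RefSeq (GRCm38.p6). The windows of the 5 genes below are shown because these genes carry the diet and strain results or, in Hmgcs1 and Srebf2, hold a match to the core of the sterol regulatory element that SREBP-2 binds. All are plus-strand sequence, 5′ to 3′: Hmgcs1 chr13:119690101-119690400, Lss chr10:76531355-76531654, Insig1 chr5:28071162-28071461, Srebf2 chr15:82147019-82147318 and Mylip chr13:45389492-45389791. Capitals mark CCAAT boxes, which read ATTGG here because each lies on the minus strand, and matches to the sterol regulatory element core.
Hmgcs1: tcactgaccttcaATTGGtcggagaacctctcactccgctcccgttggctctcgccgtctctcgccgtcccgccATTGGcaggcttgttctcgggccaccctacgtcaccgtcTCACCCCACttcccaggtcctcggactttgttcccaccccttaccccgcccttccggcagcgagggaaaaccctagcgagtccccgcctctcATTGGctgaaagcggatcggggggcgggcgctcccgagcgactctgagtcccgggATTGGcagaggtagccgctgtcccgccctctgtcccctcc
Lss: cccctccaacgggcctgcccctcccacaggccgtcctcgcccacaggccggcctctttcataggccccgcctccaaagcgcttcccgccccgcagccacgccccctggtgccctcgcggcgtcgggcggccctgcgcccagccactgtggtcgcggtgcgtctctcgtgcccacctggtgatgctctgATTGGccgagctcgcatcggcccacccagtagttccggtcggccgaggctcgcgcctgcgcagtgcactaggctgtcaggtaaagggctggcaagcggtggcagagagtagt
Insig1: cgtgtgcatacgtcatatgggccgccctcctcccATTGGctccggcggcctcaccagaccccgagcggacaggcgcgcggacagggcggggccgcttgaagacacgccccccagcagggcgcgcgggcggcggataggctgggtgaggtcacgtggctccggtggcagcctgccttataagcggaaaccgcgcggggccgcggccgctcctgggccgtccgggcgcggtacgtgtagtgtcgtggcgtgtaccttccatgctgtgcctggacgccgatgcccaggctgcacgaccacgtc
Srebf2: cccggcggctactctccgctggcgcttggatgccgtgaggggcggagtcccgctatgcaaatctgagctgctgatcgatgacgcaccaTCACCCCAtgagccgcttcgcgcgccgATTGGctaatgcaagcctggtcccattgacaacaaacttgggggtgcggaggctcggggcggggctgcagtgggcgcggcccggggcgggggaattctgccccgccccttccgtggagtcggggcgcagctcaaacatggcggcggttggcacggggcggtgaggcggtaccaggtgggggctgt
Mylip: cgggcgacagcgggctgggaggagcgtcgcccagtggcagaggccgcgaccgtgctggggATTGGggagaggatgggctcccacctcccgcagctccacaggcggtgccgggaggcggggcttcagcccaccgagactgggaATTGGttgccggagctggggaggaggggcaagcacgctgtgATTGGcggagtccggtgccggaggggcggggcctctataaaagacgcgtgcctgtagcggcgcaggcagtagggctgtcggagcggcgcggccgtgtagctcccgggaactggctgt

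Both strands of each window were searched for 5 motifs. The core CACCCCAC was found only in the Hmgcs1 window among the 6, from -136 to -129 relative to the start, and in 2.87% of 32851 windows of all genes. A looser core, TCACNCCA, was found in Hmgcs1, where it overlaps that match, and in Srebf2 from -162 to -155, against 4.36% of all windows. The CCAAT box was found in 6 of 6 windows, against 37.4% of all windows. Hmgcs1 held 4 CCAAT boxes, Mylip 3, Idi1 2 and the other windows 1 each. The GC box GGGCGG was likewise found in 6 of 6, against 35.7% of all windows. The E-box CACGTG was found in Insig1 alone of the 6, from -101 to -96, against 7.15% of all windows. These matches describe the letters of the windows and not binding.

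Libraries held 12292621 to 34591079 reads in the measured genes, with a median of 22756199. Among the 8 genes, reads per library ran from 38 to 155 for Fdps and from 64 upwards for Idi1, the least covered, and from 1660 to 6084 for Sqle. Markers of beta cells summed to 127000 to 271000 CPM (read counts scaled to a common library total), which fits the labelled tissue, with all 8 of the listed markers measured. Markers of acinar cells, the enzyme-secreting cells around islets, had a median sum of 2520 CPM and reached 41300 CPM. A pair of BALB/cJ HFD day 5 libraries stood apart, replicate 3 at 41300 CPM and replicate 4 at 23100 CPM, against 10600 CPM or less in every other library. The comparisons that rest on this pair are given with it, followed by values without it.

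Per kilobase of merged exon, Insig1 was the most abundant of the 8 genes, at a median of 47.8 CPM per kb. Sqle, the squalene epoxidase, followed at 27.8 CPM per kb, then Srebf2 at 22.1 CPM per kb and Hmgcs1, the cytosolic HMG-CoA synthase, at 18.9 CPM per kb. Lss, the lanosterol synthase that closes the sterol ring, stood at 5.54 CPM per kb and Mylip at 3.40 CPM per kb. Merged exons join those of all annotated transcripts. They held 10787 bases for Lss, against 3093 (Insig1) to 7184 (Srebf2) for the others, and the order by this measure rests on these lengths. Idi1, the isopentenyl-diphosphate isomerase, stood at 1.82 CPM per kb and Fdps, the farnesyl diphosphate synthase, at 0.928 CPM per kb. Both could have lost reads to their copies, and Fdps also to the genes that overlap it on its own strand, which was not tested. On the log2 CPM scale used from here on, which is not corrected for length, the range over the 69 libraries was widest for Fdps, at 1.94, and narrowest for Lss, at 0.92. The share of a gene's variance that lay between the 18 groups was 73% for Insig1, 66.9% for Mylip, 61.5% for Sqle and 56.1% for Lss. It was 54.3% for Fdps, 49.3% for Idi1, 40.6% for Srebf2 and 30.6% for Hmgcs1. Strain alone accounted for 52.5% of the variance of Insig1, 43.9% of that of Sqle and 34.5% of that of Mylip, but for 4.36% of that of Hmgcs1.

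The highest group mean of Sqle (7.57 log2 CPM), Idi1 (3.15 log2 CPM) and Srebf2 (7.67 log2 CPM) lay in C57BL/6J HFD day 13. That of Hmgcs1 (6.67 log2 CPM), Lss (6.24 log2 CPM) and Fdps (2.55 log2 CPM) lay in BALB/cJ RC day 5. The lowest group mean of Hmgcs1 (6.18 log2 CPM) and Insig1 (6.67 log2 CPM) lay in BALB/cJ HFD day 33. In C57BL/6J the libraries were more spread under HFD than under RC for several genes, with SDs of 0.26 and 0.10 for Lss, 0.25 and 0.09 for Insig1, and 0.19 and 0.07 for Sqle.

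**Figure D1:**
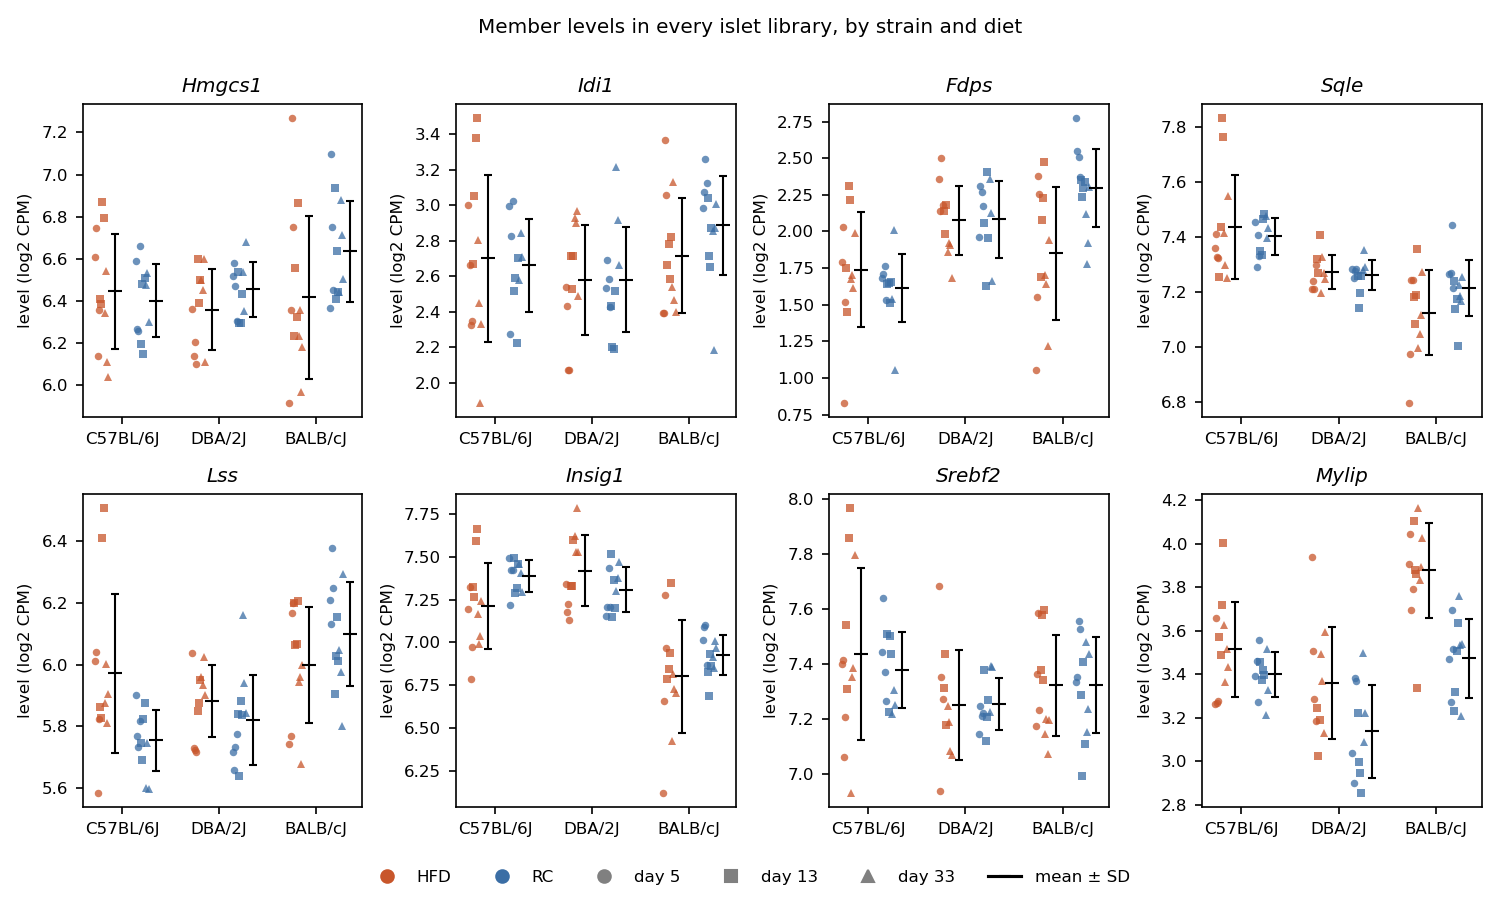
Level of each of the 8 genes in every library (log2 CPM), by strain, with HFD left of RC; marker shapes give the day, and black points and bars the mean ± SD. Mylip sits higher under HFD, and in BALB/cJ 10 of 12 HFD libraries lie above every RC library; the Insig1 points of BALB/cJ lie below those of the other strains under RC without overlap.

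The first question of the design is how islet genes differ between HFD and RC over all strains and days. Mylip rose under HFD, and none of the other 7 genes passed the test. Mylip had a lowest value of 3.02, a median of 3.57 and a highest value of 4.16 log2 CPM in the 35 HFD libraries, against 2.85, 3.38 and 3.76 log2 CPM in the 34 RC libraries. The HFD range was shifted upwards, but the groups overlapped. The means were 3.59 ± 0.32 log2 CPM under HFD (SD, n = 35) and 3.34 ± 0.22 log2 CPM under RC (SD, n = 34). The log2 change was 0.24 ± 0.05 (SE; 95% interval 0.14 to 0.34), or 1.18-fold, with an adjusted p of 0.00121 by limma with Benjamini-Hochberg adjustment. This was 1 of 8 genes called, against 5.47% of all genes. In whole islets, fewer cells of a type and less RNA per cell cannot be told apart.

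None of the 5 enzyme genes passed the test on average. Hmgcs1 had a log2 change of -0.09 (95% interval -0.20 to 0.03), Idi1 of -0.05 (-0.19 to 0.08), Fdps of -0.10 (-0.25 to 0.04), Sqle of -0.02 (-0.07 to 0.04) and Lss of 0.06 (-0.02 to 0.13). Among the regulators, Insig1 had a log2 change of -0.07 (-0.15 to 0.02) and Srebf2 of 0.02 (-0.06 to 0.10). Their adjusted p-values in limma ran from 0.373 for Lss to 0.836 for Srebf2. These averages joined strains in which the enzyme genes stood on opposite sides of 0, as the comparison within strains shows.

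Markers of other cell types also moved with HFD over all strains and days. Of 6 markers of stellate cells and fibroblasts 4 fell, with a median log2 change over the list of -0.37, and of 5 endothelial markers 2 fell. Among 5 macrophage markers only Lyz2 was called, a fall of 0.56 (adjusted p = 0.0338 in limma). Fabp4, 1 of 3 adipocyte markers and the only one measured, rose by 0.51, and Ucn3, a marker of mature beta cells, fell by 0.14. The other listed beta cell markers were not called and stood on both sides of 0. Mafa stood at 0.18, Pdx1 at 0.01, Slc2a2 at -0.03, Ins2 at -0.06, Nkx6-1 at -0.07, Iapp at -0.08 and Ins1 at -0.12. Within groups, Mylip had a Pearson r of 0.337 with the alpha cell list and -0.312 with the beta cell list over the 69 libraries. The part of cell composition in the Mylip result was not tested.

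The comparison was next made within each strain. In BALB/cJ Mylip rose by 0.40 ± 0.08 on the log2 scale (SE), or 1.32-fold, with an adjusted p of 0.0102 in limma. At day 5 it had 3.91, 4.05, 3.70 and 3.79 log2 CPM in the HFD libraries, against 3.47, 3.27, 3.69 and 3.52 log2 CPM in the RC libraries. At day 13 it had 4.10, 3.88, 3.86 and 3.34 log2 CPM under HFD, against 3.23, 3.32, 3.51 and 3.63 log2 CPM under RC. At day 33 it had 4.16, 3.83, 3.89 and 4.03 log2 CPM under HFD, against 3.76, 3.54, 3.21 and 3.54 log2 CPM under RC. The groups did not overlap at days 5 and 33, and at day 13 they overlapped through HFD replicate 4. Over the days, 10 of 12 HFD libraries lay above every RC library, with means of 3.88 ± 0.22 log2 CPM under HFD and 3.47 ± 0.18 log2 CPM under RC (SD, n = 12 each). This was 1 of 8 genes called in BALB/cJ, against 0.151% of all genes. The call was kept without any 1 library, but it was lost without day 5 (adjusted p = 0.0934), day 13 (0.0676) or day 33 (0.156) in limma, with log2 changes of 0.42, 0.42 and 0.37.

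In DBA/2J no gene was called, 0 of 8 against 0% of all genes. At an unadjusted p under 0.05 limma gave 599 of all genes and 1 of the 8, and the voom method of limma on whole reads called none. That 1 gene was Mylip, with a log2 change of 0.19 ± 0.08 (adjusted p = 0.999 in limma). It ran from 3.02 to 3.94 log2 CPM in the 11 HFD libraries (median 3.28), against 2.85 to 3.50 log2 CPM in the 11 RC libraries (median 3.09). In C57BL/6J its log2 change was 0.12 ± 0.08 (adjusted p = 0.346 in limma). It ran there from 3.26 to 4.002 log2 CPM in the 12 HFD libraries (median 3.50), against 3.21 to 3.56 log2 CPM in the 11 RC libraries (median 3.40). Averaged over the days, Mylip was thus on the higher side under HFD in each strain. In C57BL/6J at day 5 alone it averaged 3.37 log2 CPM under HFD, against 3.42 log2 CPM under RC. The difference between BALB/cJ and C57BL/6J in the HFD effect on Mylip, 0.28 ± 0.12, was not called (adjusted p = 0.175 in limma).

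In C57BL/6J the called gene was Lss, which rose by 0.23 ± 0.06 on the log2 scale (SE), or 1.17-fold, with an adjusted p of 0.0125 in limma. At day 5 Lss had 6.01, 6.04, 5.58 and 5.82 log2 CPM under HFD, against 5.90, 5.77, 5.73 and 5.82 log2 CPM under RC. At day 13 it had 5.86, 5.83, 6.41 and 6.51 log2 CPM under HFD, against 5.74, 5.69, 5.82 and 5.88 log2 CPM under RC. At day 33 it had 5.87, 6.00, 5.81 and 5.90 log2 CPM under HFD, against 5.60, 5.75 and 5.60 log2 CPM under RC. The groups overlapped at days 5 and 13 and did not overlap at day 33, and HFD replicates 3 and 4 of day 13 were the highest of all. Over the days the means were 5.97 ± 0.26 log2 CPM under HFD (SD, n = 12) and 5.75 ± 0.10 log2 CPM under RC (SD, n = 11). This was 1 of 8 genes called, against 14.6% of all genes, so a share of this size is near the background of the strain. Without day 13 the log2 change was 0.15 (adjusted p = 0.22 in limma), and without day 33 it was 0.21 (adjusted p = 0.071).

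The other genes were not called in C57BL/6J. Insig1 had the largest change of these, -0.17 ± 0.08 (unadjusted p = 0.024, adjusted p = 0.108 in limma). Its lowest, median and highest values were 6.79, 7.22 and 7.66 log2 CPM in the 12 HFD libraries, against 7.22, 7.42 and 7.49 log2 CPM in the 11 RC libraries. Of the HFD libraries 6 lay below every RC library and 2 above every RC library. So Lss and Insig1, both known as SREBP targets, stood on opposite sides of 0. In the same strain 4 of 6 stellate cell and fibroblast markers fell under HFD, and that list had a median sum of 201 CPM under HFD, against 278 CPM under RC. Over the list of 8 beta cell markers the mean level had a median of 11 log2 CPM under either diet. The median sum of that list was 173000 CPM under HFD, against 188000 CPM under RC. Ucn3, named alone from the list, fell by 0.27 (adjusted p = 0.00426 in limma). The macrophage markers Lyz2, by 0.98 (0.0151), and Adgre1, by 0.38 (0.0211), fell too, 2 of 5 in that list. Of the endothelial list 2 of 5 fell, Pecam1 by 0.22 (0.0285) and Emcn by 0.19 (0.0417), and of the ductal list 1 of 4, Spp1 by 0.57 (0.0132). All 10 acinar markers lay on the higher side under HFD, with a median of 0.68, and none was called. Their part in the Lss result was not tested.

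In BALB/cJ the enzyme genes stood on the lower side under HFD. Fdps had the lowest p, with a log2 change of -0.44 ± 0.12 that did not pass the adjustment (adjusted p = 0.118 in limma). At day 5 it had 1.05, 1.56, 2.38 and 2.26 log2 CPM in the HFD libraries, against 2.77, 2.55, 2.51 and 2.37 log2 CPM in the RC libraries. At day 13 it had 1.69, 2.08, 2.23 and 2.47 log2 CPM under HFD, against 2.35, 2.24, 2.30 and 2.34 log2 CPM under RC. At day 33 it had 1.70, 1.64, 1.22 and 1.94 log2 CPM under HFD, against 2.12, 1.78, 1.92 and 2.30 log2 CPM under RC. Of the 12 HFD libraries 6 lay below every RC library and none above. Hmgcs1 had a log2 change of -0.22 ± 0.10 (adjusted p = 0.413), Idi1 of -0.17, Lss of -0.10, Sqle of -0.09 and Insig1 of -0.13, while Srebf2 stood at -0.00 in limma.

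The BALB/cJ HFD day 5 group was split. Replicates 1 and 2 had 5.92 and 6.36 log2 CPM of Hmgcs1, while replicates 3 and 4 had 7.27 and 6.75 log2 CPM. Insig1 had 6.12 and 6.66 log2 CPM in replicates 1 and 2, and 7.28 and 6.97 log2 CPM in replicates 3 and 4. Idi1 had 2.39 and 2.39 log2 CPM in replicates 1 and 2, and 3.37 and 3.06 log2 CPM in replicates 3 and 4. Replicates 3 and 4 were the higher ones for Sqle, Lss and Fdps as well, and the lower ones for Mylip. They are also the pair that stood apart in acinar markers, at 41300 and 23100 CPM, against 2420 and 1490 CPM in replicates 1 and 2. Fabp4, the measured adipocyte marker, was at 69.1 and 80.1 CPM in replicates 1 and 2, and at 21.5 and 23.3 CPM in replicates 3 and 4.

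Without the pair, 4 of the 8 genes were called in BALB/cJ in place of 1. Fdps then fell by 0.61 on the log2 scale (adjusted p = 0.0027 in limma), Hmgcs1 by 0.37 (0.0209) and Insig1 by 0.25 (0.0379). Mylip rose by 0.44 (adjusted p = 0.00291 in limma). Of all genes 224 were called in that fit, against 22 with all libraries. The pair was left out for its acinar marker sum, above 20000 CPM, a limit chosen after the values were seen, and it also holds the highest enzyme values of its group. The HFD day 5 libraries that remain, replicates 1 and 2, held the most Fabp4 of all libraries, 69.1 and 80.1 CPM, against 49 CPM or less elsewhere. The parts of acinar and of adipocyte RNA in the levels of the 8 genes were not tested.

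**Figure D2:**
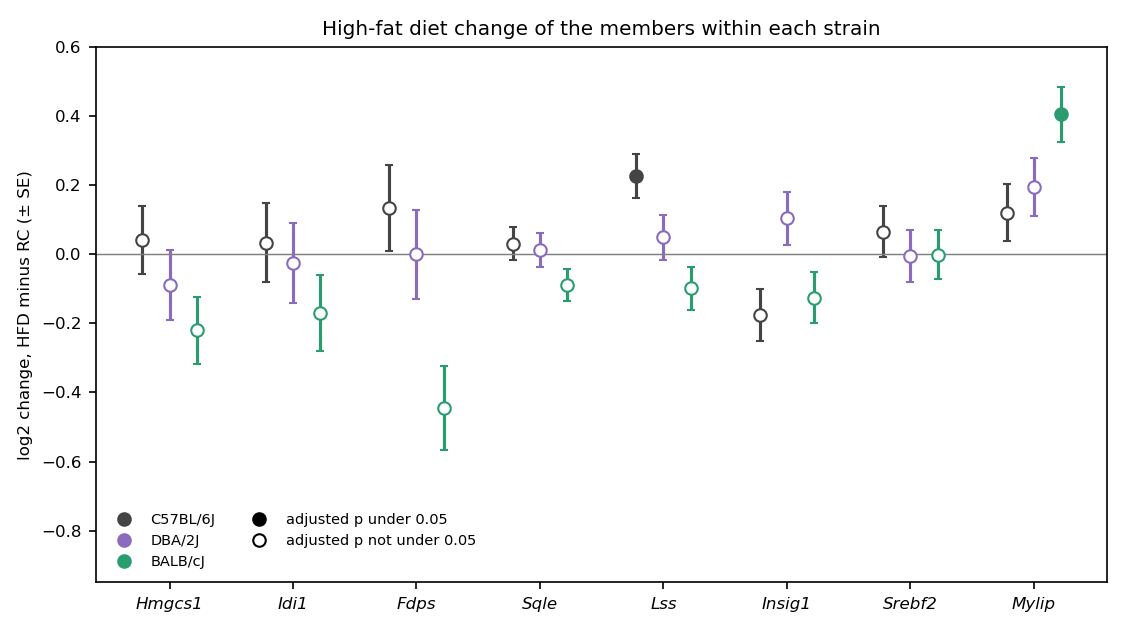
Log2 change of each gene, HFD minus RC, in each strain over the days, with SE bars; filled points have an adjusted p under 0.05 in limma. Mylip is above 0 in all 3 strains (0.12 in C57BL/6J, 0.19 in DBA/2J, 0.40 in BALB/cJ), Lss is filled in C57BL/6J (0.23), and Fdps lies lowest in BALB/cJ (-0.44).

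At single days the groups held 3 or 4 libraries, and no member was called at any day of any strain. Over the 9 strain-by-day comparisons, 19 of 72 member tests had an unadjusted p under 0.05 in limma. Of all 14604 genes, 599 (DBA/2J day 13) to 3895 (DBA/2J day 5) had such a p in a single comparison. The voom method called 2 members, 1 among 246 genes in C57BL/6J at day 13 and 1 among 71 in BALB/cJ at day 5. In C57BL/6J the members called were 0 of 8 at day 5, against 1.87% of all genes, 0 of 8 at day 13, against 1.04%, and 0 of 8 at day 33, against 0%. At day 33 limma gave 2180 of all genes at an unadjusted p under 0.05, 2 of them members, and voom called 11 genes and no member. In DBA/2J they were 0 of 8 at day 5 (0.548% of all genes), at day 13 (0%) and at day 33 (0.0205%). At day 13 limma gave 599 of all genes at an unadjusted p under 0.05, none of them a member, and voom called no gene. In BALB/cJ they were 0 of 8 at day 5 (0.315% of all genes), at day 13 (0.00685%) and at day 33 (0%). At day 33 limma gave 669 of all genes at an unadjusted p under 0.05, 3 of them members, and voom called no gene.

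At day 13 all 8 genes lay on the higher side under HFD in both C57BL/6J and DBA/2J. In DBA/2J the log2 changes ran from 0.07 for Srebf2 to 0.32 for Idi1, with a median of 0.11, and none had an unadjusted p under 0.05. In C57BL/6J the median was 0.28, and 5 of the 8 had such a p, as did 2454 of all 14604 genes. Idi1 in C57BL/6J had 2.67, 3.05, 3.38 and 3.49 log2 CPM in the HFD libraries, against 2.52, 2.59, 2.22 and 2.70 log2 CPM in the RC libraries. HFD replicate 1 lay within the RC range and the other 3 HFD libraries above it. The log2 change was 0.64 ± 0.19, or 1.56-fold (adjusted p = 0.0709 in limma, 0.0496 by voom). Lss stood at 0.37 ± 0.11 (adjusted p = 0.0645 in limma), Fdps at 0.32, Mylip and Hmgcs1 at 0.28, Srebf2 at 0.25, Sqle at 0.16 and Insig1 at 0.07.

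Within C57BL/6J day 13, HFD replicates 3 and 4 were the highest for all 8 genes, for example 7.83 and 7.76 log2 CPM of Sqle, while replicates 1 and 2 had 7.25 and 7.44 log2 CPM. Without HFD replicate 1 the adjusted p in limma was 0.0278 for Idi1 and 0.0214 for Lss, and without HFD replicate 2 it was 0.00785 for Lss. Beta cell markers summed to 139000 and 127000 CPM in replicates 3 and 4, and to 177000 and 205000 CPM in replicates 1 and 2. In the RC libraries of this day they summed to 165000 to 211000 CPM, a range that holds HFD replicates 1 and 2. Ucn3, named alone from the list of 8 beta cell markers, fell by 0.67 under HFD at this day (adjusted p = 0.00163 in limma). The part of cell composition in these values was not tested.

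At the other days in C57BL/6J, Lss stayed on the higher side under HFD, at 0.06 at day 5 and 0.25 at day 33, while Insig1 lay on the lower side. At day 5 Insig1 had 7.20, 7.32, 6.79 and 6.97 log2 CPM under HFD, against 7.49, 7.22, 7.42 and 7.42 log2 CPM under RC, a log2 change of -0.32 ± 0.13 (adjusted p = 0.181 in limma). At day 33 it stood at -0.28 (adjusted p = 0.335), with 7.17, 6.99, 7.04 and 7.24 log2 CPM under HFD, against 7.45, 7.41 and 7.29 log2 CPM under RC. The groups overlapped at day 5 and did not overlap at day 33. At day 33, 4 of the 8 genes lay on the higher side (Lss, Fdps, Mylip and Srebf2), and Idi1 stood at -0.34 (adjusted p = 0.425).

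In BALB/cJ 5 of the 8 genes had an unadjusted p under 0.05 at day 5, as did 1579 of all 14604 genes. The 5 were Fdps at -0.74 ± 0.21 (adjusted p = 0.102 in limma, 0.0447 by voom), Lss at -0.27, Insig1 at -0.26, Sqle at -0.23 and Mylip at 0.37. Without the acinar-high pair, 5 genes were called at day 5, among 1038 of all genes, with 2 HFD libraries left, those highest in Fabp4. They were Fdps, which fell by 1.25 on the log2 scale (adjusted p = 0.000354 in limma), Idi1, which fell by 0.72 (0.0326), Insig1, which fell by 0.63 (0.00118), Lss, which fell by 0.49 (0.00934), and Sqle, which fell by 0.41 (0.00211). At day 13 the changes in BALB/cJ were small for the enzyme genes, from -0.19 for Fdps to 0.11 for Lss, while Srebf2 stood at 0.27 and Mylip at 0.37 (adjusted p = 0.301 and 0.248). At day 33 Mylip stood at 0.47 ± 0.14 (adjusted p = 0.779), Hmgcs1 at -0.45 ± 0.17 (0.939) and Insig1 at -0.27 (0.963). Hmgcs1 had 6.24, 6.36, 5.97 and 6.18 log2 CPM there under HFD, against 6.44, 6.88, 6.71 and 6.51 log2 CPM under RC, with no overlap. In DBA/2J Mylip stood at 0.31, 0.15 and 0.13 at days 5, 13 and 33.

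**Figure D3:**
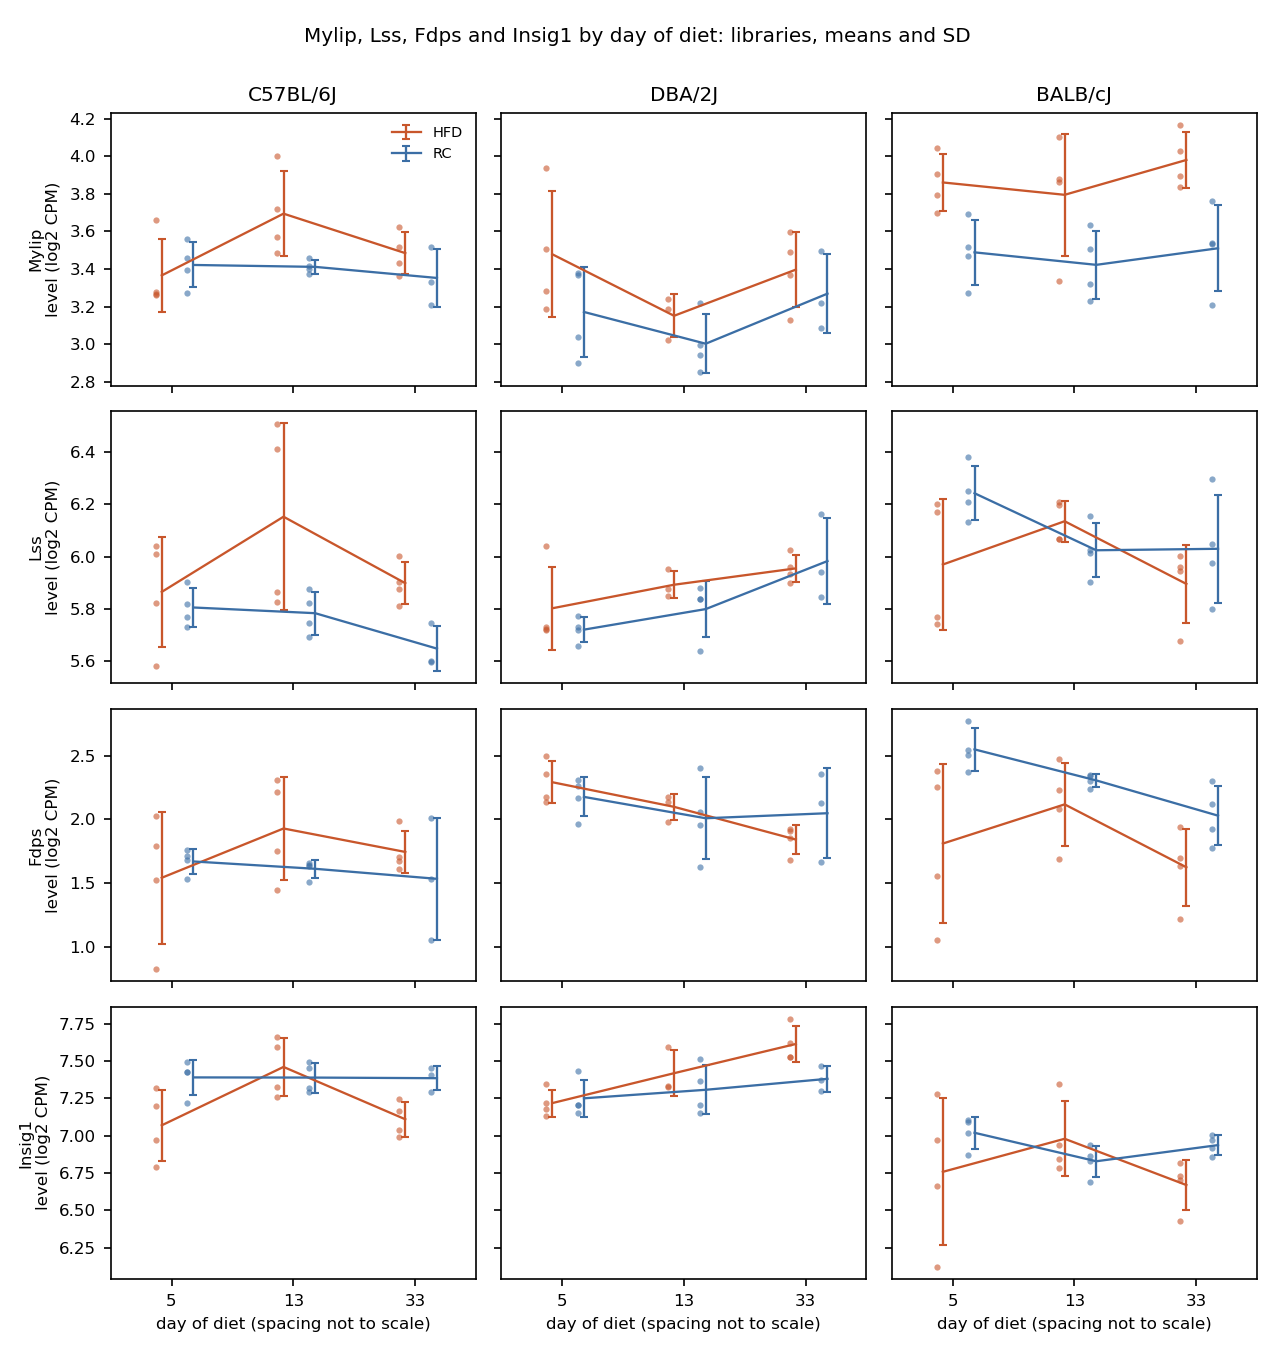
Levels (log2 CPM) of Mylip, Lss, Fdps and Insig1 by day of diet in each strain, with points for libraries and mean ± SD, HFD left of RC at each day. Lss in C57BL/6J HFD day 13 is split between 2 libraries at 5.83 and 5.86 and 2 at 6.41 and 6.51, and Fdps in BALB/cJ HFD day 5 runs from 1.05 to 2.38.

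The design also asks whether the diet effect differs between strains. Only Lss did by the test, for BALB/cJ minus C57BL/6J, with a difference of -0.32 ± 0.09 in the log2 change (95% interval -0.50 to -0.15, adjusted p = 0.0476 in limma). The change itself was -0.10 in BALB/cJ and 0.23 in C57BL/6J. This was 1 of 8 genes, against 1.27% of all genes, and the call lay close to the threshold: it was lost in 41 of 69 fits that each left out 1 library, with adjusted p from 0.0233 to 0.0954. Fdps differed by -0.58 ± 0.17 (adjusted p = 0.0632 in limma, 0.0494 by voom) and was called without the acinar-high pair (-0.75, adjusted p = 0.0191), as was Lss (-0.40, 0.0191). For DBA/2J minus C57BL/6J, 0 of 8 genes were called, against 1.11% of all genes. Insig1 had the lowest p there, with a difference of 0.28 ± 0.11 (adjusted p = 0.147) between 0.10 in DBA/2J and -0.17 in C57BL/6J. For BALB/cJ minus DBA/2J, 0 of 8 were called, against 0% of all genes. At an unadjusted p under 0.05 limma gave 472 of all genes and 2 members, Fdps at -0.44 and Insig1 at -0.23, and voom called no gene. All comparisons with a strain share its libraries.

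No member had a diet effect at day 33 that differed by the test from that at day 5. The count was 0 of 8 in C57BL/6J, against 0.0205% of all genes, 0 of 8 in DBA/2J, against 0.0137%, and 0 of 8 in BALB/cJ, against 0%. None of the 24 member tests had an unadjusted p under 0.05 in limma or was called by voom, while in BALB/cJ 706 of all genes had such a p and voom called none. For Mylip the difference, day 33 minus day 5, was 0.19 in C57BL/6J (95% interval -0.22 to 0.60), -0.18 in DBA/2J (-0.59 to 0.23) and 0.10 in BALB/cJ (-0.30 to 0.49). Intervals of this width leave room for differences as large as the diet effect itself.

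The strains differed in a large share of all genes under each diet, and the counts of called members lay near that background or below it. Insig1 was lower in BALB/cJ than in either other strain, under both diets. Under HFD its lowest, median and highest values were 6.12, 6.80 and 7.35 log2 CPM in the 12 BALB/cJ libraries, against 7.13, 7.34 and 7.78 log2 CPM in the 11 DBA/2J libraries and 6.79, 7.22 and 7.66 log2 CPM in the 12 C57BL/6J libraries. Under RC they were 6.69, 6.93 and 7.10 log2 CPM in the 12 BALB/cJ libraries, against 7.15, 7.30 and 7.51 log2 CPM in the 11 DBA/2J libraries and 7.22, 7.42 and 7.49 log2 CPM in the 11 C57BL/6J libraries. Under RC every BALB/cJ library lay below every library of the other strains, and under HFD 10 of 12 lay below every DBA/2J library and 6 of 12 below every C57BL/6J library. The log2 difference to DBA/2J was -0.61 ± 0.08 under HFD (adjusted p = 7.39e-10 in limma) and -0.38 ± 0.08 under RC (3.22e-05). That to C57BL/6J was -0.41 ± 0.07 under HFD (3.75e-06) and -0.46 ± 0.08 under RC (6.61e-07). Insig2, the gene of the other INSIG protein, went the opposite way, higher in BALB/cJ by 0.40 than in DBA/2J and by 0.33 than in C57BL/6J under HFD (adjusted p = 3.74e-14 and 6.09e-12), and by 0.41 and 0.20 under RC (2.52e-14 and 6.6e-06).

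Sqle was also lowest in BALB/cJ and highest in C57BL/6J. Under HFD it averaged 7.13 ± 0.16 log2 CPM in BALB/cJ (SD, n = 12) and 7.27 ± 0.06 log2 CPM in DBA/2J (SD, n = 11), against 7.43 ± 0.19 log2 CPM in C57BL/6J (SD, n = 12). The log2 difference to C57BL/6J was -0.31 for BALB/cJ (adjusted p = 8.17e-08 in limma) and -0.16 for DBA/2J (0.00369), and BALB/cJ lay 0.15 below DBA/2J (-0.15, adjusted p = 0.00885). Under RC it averaged 7.21 ± 0.10 log2 CPM in BALB/cJ (SD, n = 12) and 7.26 ± 0.05 log2 CPM in DBA/2J (SD, n = 11), against 7.40 ± 0.07 log2 CPM in C57BL/6J (SD, n = 11). Of the RC libraries 11 of 12 from BALB/cJ and 10 of 11 from DBA/2J lay below every C57BL/6J library. The RC differences to C57BL/6J were -0.19 for BALB/cJ (adjusted p = 0.000605) and -0.14 for DBA/2J (0.0133). With the number in the sample titles as a covariate both calls were lost, at -0.11 for BALB/cJ (0.096) and -0.06 for DBA/2J (0.355). BALB/cJ and DBA/2J were not told apart by the test under RC.

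Lss, Fdps and Hmgcs1 ran the other way under RC, higher in BALB/cJ. Lss averaged 6.10 ± 0.17 log2 CPM in BALB/cJ (SD, n = 12), against 5.82 ± 0.15 log2 CPM in DBA/2J and 5.75 ± 0.10 log2 CPM in C57BL/6J (SD, n = 11 each). The log2 difference was 0.26 to DBA/2J (adjusted p = 0.000675 in limma) and 0.35 to C57BL/6J (4.81e-06), and 11 of 12 BALB/cJ libraries lay above every C57BL/6J library. Fdps averaged 2.30 ± 0.27 log2 CPM in BALB/cJ (SD, n = 12) and 2.08 ± 0.26 log2 CPM in DBA/2J, against 1.61 ± 0.23 log2 CPM in C57BL/6J (SD, n = 11 each). The log2 difference to C57BL/6J was 0.69 for BALB/cJ (4.86e-06) and 0.47 for DBA/2J (0.00158). Hmgcs1 was higher in BALB/cJ than in C57BL/6J by 0.23 (adjusted p = 0.0423), a call lost in 12 of 69 fits that left out 1 library. Under HFD none of these 3 genes differed between BALB/cJ and C57BL/6J by the test, and Fdps was higher in DBA/2J than in C57BL/6J by 0.34 (0.0175), a call lost without C57BL/6J HFD day 5 replicate 3 (0.0613). Fdps has near-identical copies elsewhere in the genome and is overlapped by genes on its own strand. Strain differences in those copies and genes, or in their mapping, were not tested.

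Mylip was lowest in DBA/2J and, under HFD, highest in BALB/cJ. BALB/cJ exceeded DBA/2J by 0.54 under HFD (adjusted p = 2.9e-07 in limma) and by 0.33 under RC (0.00119), and exceeded C57BL/6J by 0.36 under HFD (0.00013). Under RC BALB/cJ and C57BL/6J were not told apart by the test (0.08 ± 0.08, 95% interval -0.09 to 0.24, adjusted p = 0.431). DBA/2J lay below C57BL/6J under RC (-0.25, adjusted p = 0.0117), and under HFD the difference of -0.17 missed the threshold (0.0677). Srebf2 differed once, lower in DBA/2J than in C57BL/6J under HFD (-0.18, adjusted p = 0.032), a call lost in 7 of 69 fits that left out 1 library, and in DBA/2J under HFD Insig1 was higher than in C57BL/6J (0.20, 0.0179). The Insig1 call was lost without DBA/2J HFD day 13 replicate 3 (0.0554), with array weights (0.11, adjusted p = 0.0801) and once title numbers were fitted (0.10, 0.321).

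Under HFD the members called numbered 4 of 8 for DBA/2J minus C57BL/6J, against 58.6% of all genes, 3 of 8 for BALB/cJ minus C57BL/6J, against 54.5%, and 3 of 8 for BALB/cJ minus DBA/2J, against 35.1%. Under RC they numbered 3 of 8 for DBA/2J minus C57BL/6J, against 54.5% of all genes, 5 of 8 for BALB/cJ minus C57BL/6J, against 56.3%, and 3 of 8 for BALB/cJ minus DBA/2J, against 35%. Without the acinar-high pair the calls of BALB/cJ under HFD were kept: Insig1 stood at -0.74 against DBA/2J (adjusted p = 1.18e-13 in limma) and -0.53 against C57BL/6J (1.16e-09), Sqle at -0.21 (0.000242) and -0.37 (1.05e-09), and Mylip at 0.57 (4.11e-07) and 0.40 (0.000123). Insig2 stood at 0.42 (1.88e-13) and 0.35 (2.15e-11). Fdps was then also called, lower in BALB/cJ than in DBA/2J (-0.40, 0.00813). Markers of other cells differed too: of 6 stellate cell and fibroblast markers all 6 were higher in BALB/cJ than in C57BL/6J under each diet, with a median of 1.30 under HFD and 0.90 under RC. Their part in the strain differences was not tested.

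**Figure D4:**
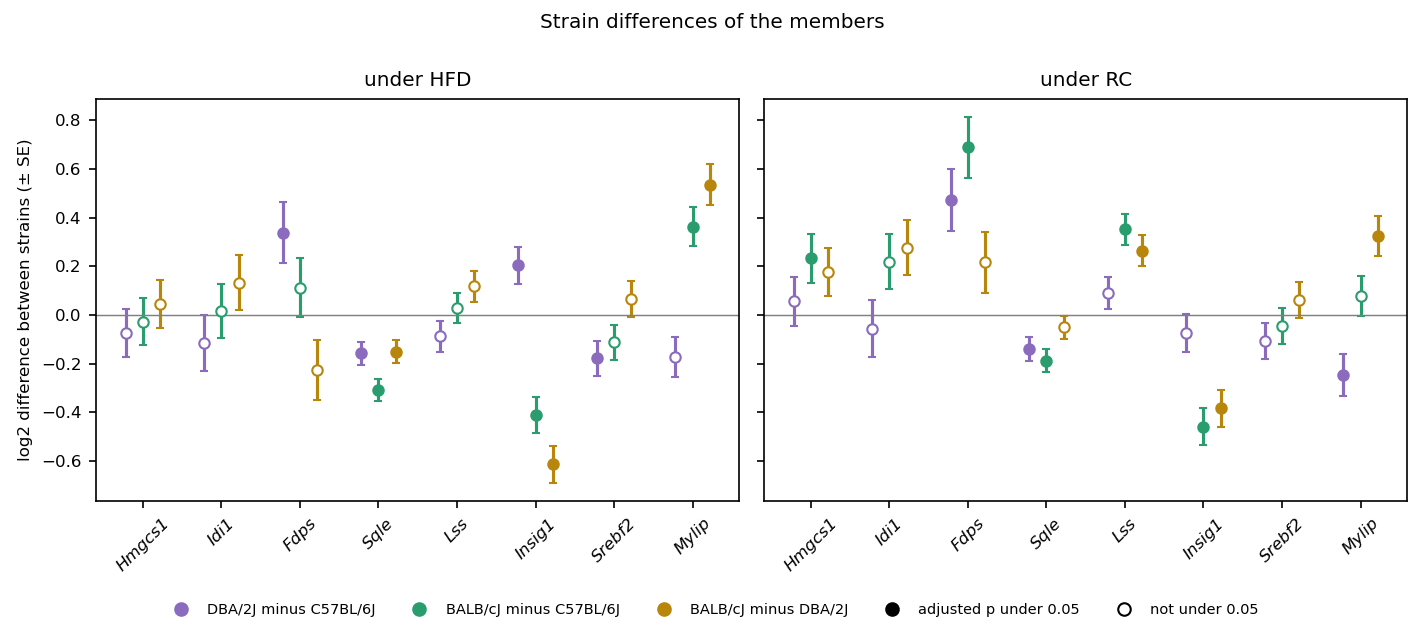
Log2 difference of each gene between strains, first strain minus second, with SE bars, HFD panel left of the RC panel; filled points have an adjusted p under 0.05 in limma. Insig1 in BALB/cJ lies farthest below 0 (-0.61 against DBA/2J under HFD), and Fdps farthest above (0.69 for BALB/cJ minus C57BL/6J under RC).

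Day 33 was then compared with day 5 within each strain and diet. In DBA/2J under HFD Insig1 and Idi1 rose with time. Insig1 had 7.34, 7.18, 7.22 and 7.13 log2 CPM at day 5, 7.33, 7.33 and 7.60 log2 CPM at day 13 and 7.62, 7.53, 7.78 and 7.53 log2 CPM at day 33. Every day 33 library lay above every day 5 library, a log2 change of 0.40 ± 0.13 (adjusted p = 0.0198 in limma). Idi1 had 2.54, 2.43, 2.07 and 2.07 log2 CPM at day 5, 2.71, 2.53 and 2.71 log2 CPM at day 13 and 2.93, 2.90, 2.97 and 2.49 log2 CPM at day 33. The days overlapped through day 33 replicate 4, and the log2 change was 0.54 ± 0.19 (adjusted p = 0.0346). These were 2 of 8 genes, close to the 23.3% of all genes that were called there.

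The Insig1 call was lost without day 5 replicate 3 (adjusted p = 0.0673 in limma), day 5 replicate 4 (0.0594) or day 33 replicate 3 (0.0741). That of Idi1 was lost without the same 3 libraries (0.147, 0.107 and 0.0883) and without day 33 replicates 1 (0.071) or 2 (0.0729). Under RC the same strain gave log2 changes of 0.13 for Insig1 and 0.37 for Idi1 from day 5 to day 33, and neither was called. In the other strains and diets the members called were 0 of 8 in C57BL/6J HFD (0.233% of all genes), BALB/cJ HFD (0.555%), C57BL/6J RC (0.123%), DBA/2J RC (0.00685%) and BALB/cJ RC (0.00685%). Over the 48 member tests of time 6 had an unadjusted p under 0.05 in limma, among them Fdps at -0.52 in BALB/cJ RC and -0.45 in DBA/2J HFD. Of all 14604 genes, 915 (BALB/cJ RC) to 5404 (DBA/2J HFD) had such a p in a single comparison. Voom called 2 members, in DBA/2J HFD, among 3239 genes.

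Within groups, the enzyme genes varied together from mouse to mouse. After the mean of each group was taken out, Pearson r between the 10 pairs of enzyme genes ran from 0.458 (Sqle with Idi1) to 0.703 (Lss with Fdps) over the 69 libraries, with a median of 0.531. Insig1 varied with the enzyme genes at 0.547 to 0.682, and Srebf2 at 0.175 to 0.521. Mylip stood apart, with r from -0.155 (Hmgcs1) to 0.365 (Lss) and a median of 0.037. The mean deviation of the 5 enzyme genes was lowest and highest in BALB/cJ HFD day 5. It was -0.46 and -0.24 in replicates 1 and 2, and 0.44 and 0.26 in replicates 3 and 4, the acinar-high pair. In C57BL/6J HFD day 13 it was -0.29, -0.25, 0.28 and 0.27. Neither these correlations nor the ranking of genes below was computed without these libraries. The correlations are descriptions, and the genes share libraries and depth.

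Among the genes most like the mean of the 5 enzyme genes within groups, of 13029 ranked, were others of sterol synthesis. Fdft1, the squalene synthase, had an r of 0.803, Msmo1, a methylsterol oxidase, 0.788, and Cyp51, the lanosterol demethylase, 0.756. Scd2, a fatty acid desaturase, stood at 0.711, Stard4, a sterol carrier, at 0.708 and Rdh11 at 0.707. Those most like Mylip were Epg5, an autophagy factor, at 0.653, Lpin1, a phosphatidate phosphatase, at 0.645, Zfp395 at 0.638, Gpam, a glycerol-3-phosphate acyltransferase, at 0.613, and Tfap4, a transcription factor, at 0.609. Gpam also rose with HFD over all strains and days, by 0.16 (adjusted p = 0.023 in limma).

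**Figure D5:**
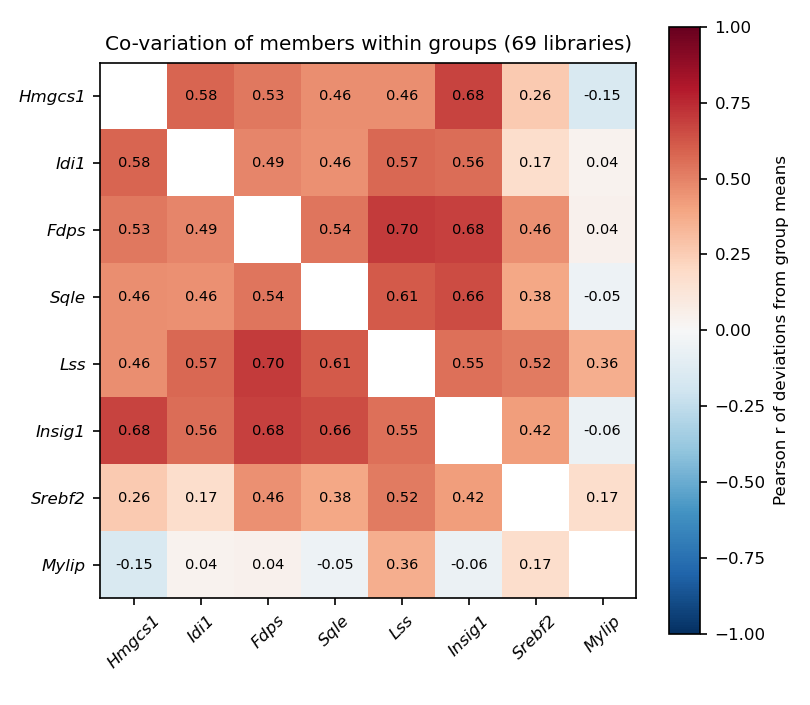
Pearson r between the 8 genes across 69 libraries after group means were taken out; colour gives r. The 5 enzyme genes and Insig1 form a block of r from 0.458 to 0.703, and the Mylip row lies between -0.155 and 0.365.

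The rest of the pathway was read from lists. Of the 10 genes of the mevalonate and isoprenoid arm, which hold Hmgcs1, Idi1 and Fdps, none was called under HFD in any strain. Of these genes 9 lay on the higher side in C57BL/6J, 3 in DBA/2J and 0 in BALB/cJ, with median log2 changes of 0.08, -0.02 and -0.10, beside medians over all genes of -0.01, 0.01 and 0.00. Of the 12 genes of the sterol arm, which hold Sqle and Lss, 8 lay on the higher side in C57BL/6J, 7 in DBA/2J and 1 in BALB/cJ, with medians of 0.02, 0.01 and -0.11, and Lss in C57BL/6J was the only one called. For the effect in BALB/cJ minus C57BL/6J the median was -0.20 for the mevalonate arm and -0.14 for the sterol arm, beside 0.02 over all genes. Outside the 8 genes the lowest p in C57BL/6J went to Mvd, the mevalonate decarboxylase, in the mevalonate arm, at 0.28 (adjusted p = 0.0749 in limma), and to Tm7sf2, a sterol reductase, in the sterol arm, at 0.23 (0.102). In BALB/cJ it went to Fdft1 at -0.16 (0.359) and to Msmo1 at -0.22 (0.279). With the acinar-high pair left out, the medians in BALB/cJ were -0.17 for each arm, and 2 genes of each arm fell by the test, Hmgcs1 and Fdps in the mevalonate arm and Msmo1 (-0.30, 0.0339) and Cyp51 (-0.34, 0.0304) in the sterol arm. For the effect in BALB/cJ minus C57BL/6J the medians were then -0.26 for the mevalonate arm and -0.23 for the sterol arm.

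At single days 1 other gene of these arms was called: Hsd17b7, a sterol reductase, rose in C57BL/6J at day 13 by 0.69 (adjusted p = 0.0385 in limma). At that day 8 of 10 genes of the mevalonate arm and 10 of 12 of the sterol arm lay on the higher side, with medians of 0.30 and 0.26. In BALB/cJ at day 5 it was 3 of 10 and 1 of 12, with medians of -0.17 and -0.23, and the lowest p outside the 8 genes went to Ebp, a sterol isomerase, at -0.33 (0.153). Without the acinar-high pair 2 of 10 genes of the mevalonate arm and 7 of 12 of the sterol arm fell there by the test, among 1038 of all genes, with medians of -0.36 and -0.41 and Ebp at -0.48 (0.0124).

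Other enzymes of the pathway also differed between strains under RC. In BALB/cJ minus C57BL/6J 7 of 10 genes of the mevalonate arm were higher and 1 lower by the test, with a median of 0.30, and 6 of 12 of the sterol arm were higher and 3 lower, with a median of 0.25, beside -0.00 over all genes and 56.3% of them called. Mvd was higher by 0.76, Pmvk, the phosphomevalonate kinase, by 0.49 and Nsdhl, a sterol dehydrogenase, by 0.55 (adjusted p = 4.79e-08, 1.2e-07 and 6.31e-10 in limma). Ggps1, which makes geranylgeranyl diphosphate, was lower by the test (-0.35, 4.87e-07). Under HFD the counts were 4 higher and 2 lower in the mevalonate arm, with a median of 0.08, and 4 higher and 3 lower in the sterol arm, with a median of -0.01. They were, without that pair of BALB/cJ libraries, 3 higher and 2 lower, with a median of -0.03, and 2 higher and 3 lower, with a median of -0.11.

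In C57BL/6J the counts of called genes in the remaining lists lay near the share of all genes called there, 14.6%, or below it. The share of all genes called was 0.151% in BALB/cJ and 0% in DBA/2J. Around Srebf2 and Insig1, 2 of the 14 genes of SREBP processing fell under HFD in C57BL/6J and none was called in DBA/2J or BALB/cJ. They were Insig2, by 0.16 (adjusted p = 0.00298 in limma), and Mbtps1, the protease that makes the first cut in SREBP, by 0.09 (0.0392). With time in DBA/2J HFD 4 of these 14 rose, Insig1 among them, with Mbtps2, the protease of the second cut, by 0.55 (0.000765), against 23.3% of all genes called in that comparison. Around Mylip, the list of LXR targets and cholesterol efflux and storage held 14 genes. Of these 13 lay on the higher side under HFD in BALB/cJ, 11 in DBA/2J and 4 in C57BL/6J, with medians of 0.08, 0.02 and -0.06. Without the acinar-high pair 11 of the 14 lay on the higher side in BALB/cJ, with a median of 0.10. In that fit 3 were called, among 224 of all genes: Mylip, Scd1 (0.94, 4.69e-05) and Abca1, a cholesterol exporter (0.46, 0.0362). The day 5 HFD libraries left in it are those highest in Fabp4. With all libraries, called were Mylip in BALB/cJ, and in C57BL/6J Nr1h2, which encodes LXR beta and rose by 0.26 (0.032), and Smpdl3a, an LXR target, which fell by 0.29 (0.000424). Of the 16 genes of cholesterol uptake and transport the calls were Mylip in BALB/cJ and, in C57BL/6J, Gramd1a, a sterol carrier that rose by 0.26 (0.00216), and Lipa, the lysosomal acid lipase, which fell by 0.25 (0.00508).

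Of 15 genes of fatty acid synthesis 1, Me1, the malic enzyme, fell in C57BL/6J, by 0.24 (adjusted p = 0.00912 in limma), and none was called in DBA/2J or BALB/cJ over the days. Scd1, a desaturase that LXR and SREBP-1c induce, rose under HFD in BALB/cJ at day 5 by 1.69 (0.0159), and under HFD it was lower there at day 33 than at day 5 (-1.98, 0.000238). These changes of Scd1 were 2.90 (2.41e-11) and -3.19 (5.76e-13) without the acinar-high pair. That fit rests at day 5 on HFD replicates 1 and 2, the libraries highest in the adipocyte marker Fabp4 (69.1 and 80.1 CPM). The part of adipocyte RNA in the Scd1 values was not tested. Of 10 genes of the non-sterol isoprenoid branches 1, Dhdds, which serves dolichol synthesis, fell in C57BL/6J, by 0.26 (0.0111), and by 0.55 at day 5 (0.00977). For Mylip, day 33 and day 5 in BALB/cJ under HFD differed by 0.12 ± 0.14 (adjusted p = 0.863), and by 0.00 without the pair (0.997).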

How the data were processed

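Messenger RNA was sequenced as stranded, poly(A)-selected libraries with single-end reads of 125 bases, per the labels' protocols. Tools named in the submitters' processing notes, with no role or order, are edgeR (no version), HTSeq 0.9.1 and STAR 2.5.3a, and the build is GRCm38. Values were deposited as log2 CPM, already normalized by the authors. Columns exist for 69 of 72 samples; 1 sample each of DBA/2J HFD day 13, C57BL/6J RC day 33 and DBA/2J RC day 33 was not analysed here. The spelling C56BL/6J in the labels was taken to mean C57BL/6J, and day 33 follows the sample labels. The values have a floor of -3.54 log2 CPM (0.0862 CPM), from which whole reads were recovered for 100% of values within 0.05 reads.

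Group means were estimated for all 14604 genes over 69 libraries in a single fit with limma 3.58.1 (lmFit, eBayes with trend) in R 4.3.3. It was checked on simulated data. It gave 31 two-sided contrasts, with Benjamini-Hochberg adjustment over all genes within each and a threshold of 0.05. Averages weight days, and strains, equally. Values after ± are SE for log2 changes and SD for means. No filter or pseudocount was added. Alternatives were log2(CPM + 1), genes with a mean of at least 1 log2 CPM, centring on library medians, array weights, voom on recovered reads, the number in the sample title as a covariate or block, each strain alone, and leaving out libraries. Leaving out a day, or the acinar-high pair, was chosen after seeing the data.

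The 8 genes and all lists were chosen with earlier results of these data known. Named other genes are those of each list with the lowest p, up to 4 a list, and the most alike genes by Pearson r within groups, 8 for the enzyme mean and 5 for Mylip; some of the most alike genes are not reported here. Single marker genes of other cell types (Ucn3, Fabp4) were named after their values were seen. Copies were sought with blastn 2.17.0+ on GENCODE M21 transcripts, identifiers being matched without version; promoters are from RefSeq, which gave no window for Sqle and Fdps. Figures were drawn with matplotlib 3.10.9 in Python 3.11.15.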

Additional observations from a re-analysis of the deposited data

Results flagged for a closer look

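In 120 sets of 4 libraries, 1 for each gene and group of that size, 4 had a library far from the other 3, where chance alone gives this in about 5% of sets. Idi1 in DBA/2J HFD day 33 was lowest in replicate 4, at 2.489 log2 CPM, with the others between 2.9 and 2.967. Lss in DBA/2J HFD day 5 was highest in replicate 1, at 6.039, with the others between 5.717 and 5.73. Fdps in C57BL/6J RC day 13 was lowest in replicate 3, at 1.511, with the others between 1.638 and 1.658. Mylip in C57BL/6J HFD day 5 was highest in replicate 2, at 3.66, with the others between 3.262 and 3.275.

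The HFD effect on Lss differed between strains by the interaction test in limma, BALB/cJ minus C57BL/6J, by -0.3249 on the log2 scale (adjusted p = 0.0476 over all genes). The effect was -0.10 in BALB/cJ and 0.23 in C57BL/6J.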

How the results depend on the processing

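The 248 member results, 27 of them called, were recomputed under 12 alternatives, giving 2248 values. Of these 2186 kept their status, called or not called, 17 lost a call and 45 gained one. Only values of the 27 called results could lose a call, so most of the kept values were called in neither fit. None turned its sign where it was called in either fit, and 89 small values called in neither fit changed sign. In the fits that left out each of 69 libraries, 70 values lost a call and 34 gained one. There were 17112 values in all, and again only those of the 27 called results could lose a call. The Mylip call over all strains and days was kept in 11 of 11 alternatives, with log2 changes of 0.20 to 0.26 and adjusted p in limma from 0.000159 to 0.047. The cause of each change below was not tested.

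Array weights gave 3 members called in place of 1 for HFD minus RC in C57BL/6J, 7 in place of 0 at its day 13, 2 in place of 0 at its day 33 and in DBA/2J at day 5, 1 in place of 0 for the effect in DBA/2J minus C57BL/6J and 2 in place of 1 for that in BALB/cJ minus C57BL/6J. They also gave 6 in place of 3 for BALB/cJ minus DBA/2J under RC, and for day 33 minus day 5 under HFD 1 in place of 0 in C57BL/6J and 4 in place of 2 in DBA/2J. They raised the calls over all genes as well, to 4876 in place of 2125 in C57BL/6J, 2743 in place of 152 at its day 13, 3824 in place of 0 at its day 33 and 5990 in place of 80 in DBA/2J at day 5. For the effects in DBA/2J and BALB/cJ minus C57BL/6J these calls were 2112 in place of 162 and 1627 in place of 186. For BALB/cJ minus DBA/2J under RC they were 6439 in place of 5113. For time under HFD they were 1360 in place of 34 in C57BL/6J and 7340 in place of 3407 in DBA/2J. With the title number as a covariate the counts were 0 in place of 1 in C57BL/6J (Lss, adjusted p = 0.107 in limma), 0 in place of 1 for the effect in BALB/cJ minus C57BL/6J, 3 in place of 5 for that strain pair under RC, 2 in place of 4 for DBA/2J minus C57BL/6J under HFD and 1 in place of 2 for time in DBA/2J HFD. The calls over all genes fell too, in the same order to 338 in place of 2125, 25 in place of 186, 7419 in place of 8225, 7004 in place of 8558 and 1548 in place of 3407. In C57BL/6J at day 5 every HFD title number lies below every RC title number, so diet and title number cannot be told apart there. Voom gave 1 in place of 0 in C57BL/6J at day 13 (246 of all genes in place of 152) and in BALB/cJ at day 5 (71 in place of 46). For the effect in BALB/cJ minus C57BL/6J voom gave 2 in place of 1 (257 of all genes in place of 186), and centring gave 0 (193). Each strain fitted alone gave 0 in place of 1 in BALB/cJ (Mylip, adjusted p = 0.0857), with 3 of all genes called in place of 22. Without day 5, 13 or 33 the count was 0 in BALB/cJ (7, 5 and 6 of all genes in place of 22). Without day 13 or 33 it was 0 in C57BL/6J (739 and 1691 of all genes in place of 2125). Without the acinar-high pair the counts were 4 in place of 1 in BALB/cJ, 5 in place of 0 at its day 5, 2 in place of 0 in C57BL/6J at day 13 and 2 in place of 1 for the effect in BALB/cJ minus C57BL/6J. The calls over all genes were, in the same order, 224 in place of 22, 1038 in place of 46, 249 in place of 152 and 118 in place of 186.

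Without 1 library at a time the counts ran from 0 to 2 for time in DBA/2J HFD, from 2 to 5 for DBA/2J minus C57BL/6J under HFD (2 without DBA/2J HFD day 13 replicate 3), from 0 to 2 for the effect in BALB/cJ minus C57BL/6J, and from 1 to 2 in BALB/cJ and 0 to 2 at its day 5, the gains coming without HFD day 5 replicate 3 or 4. They ran from 0 to 2 in C57BL/6J at day 13. The calls over all genes in these fits are not given here. The labels do not say what the numbers in the sample titles mean, so pairing by number could be neither shown nor excluded. Of 21 pairs with one number 9 correlated above 0.1 (from -0.287 to 0.349), and the own number gave the best match in 8. A replicate block by title number (consensus correlation 0.0565) gave 1 member called in place of 0 in C57BL/6J at day 13 (Lss, adjusted p = 0.0487) and changed no other count. Depth limits Fdps and Idi1 most, with as few as 38 and 64 reads in a library.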
